A study of Mus musculus with 2 samples.

Results

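Amino acids and small organic osmolytes enter cells through solute carriers of a few families. Genes of 7 of these families were compared between CMT93-PM1 cells, recovered from lung tumours, and the CMT93 cells from which they came. Every gene symbol of the platform annotation that begins with Slc1a, Slc3a, Slc6a, Slc7a, Slc36a, Slc38a or Slc43a and goes on with a number was taken, which gave 63 of the 18193 genes named on the array. Of these, 60 are carriers or carrier subunits, and 3 (Slc7a6os, Slc36a1os and Slc6a19os) are genes named for lying on the opposite strand of a carrier, so they are not transporters themselves. Where a gene had several probe sets, the one with the brightest average over both arrays stood for it. A gene counted as measured if that signal was above the 40th percentile of its array on at least 1 array, and 42 of the 63 passed.

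CMT-93 is a mouse rectal carcinoma line. For CMT93-PM1, such cells were given by tail vein to female C57BL/6 mice aged 6 weeks, and tumours dissected from the lungs 8 weeks later were put into primary culture. CMT93 was the uninjected line. Both were grown in the same serum-supplemented medium with antibiotics and an antifungal, and each gave 1 biotin-labelled array from 6 µg of total RNA. With 1 array per group there was no replicate error, no test between the lines and no p-value, and the lines cannot be told apart from their culture dishes, labelling reactions or arrays. The only spread available was that between probe sets of 1 gene on the same pair of arrays. Its median SD was 0.17 log2 over 5782 genes that had more than 1 probe set above the floor on both arrays, and the 90th percentile was 0.49. For the 17 transporter genes with several such probe sets the median SD was 0.19 and the highest 0.98.

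Signals are log2 values, and a difference is CMT93-PM1 minus CMT93, so that negative values are lower in the lung-recovered line. The 40th percentile, used as a floor, was 4.59 on the CMT93-PM1 array and 4.69 on the CMT93 array. The overall median signal was 5.26 on the CMT93-PM1 array and 5.36 on the CMT93 array. Signals of different probe sets depend on the probes, so levels are not ranked between genes.

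The epithelial identity of both cultures was checked first. Of 11 intestinal epithelial markers, 8 were above the floor on each array, among them Epcam (11.20 in CMT93-PM1 and 10.36 in CMT93), Cdh1 (12.52 and 12.66) and Krt19 (12.98 and 12.72). Cdx2, counted among the 8, was near the floor (5.08 and 5.24), and Krt20, Vil1 and Cdx1 were at the floor on both. Of 5 leukocyte markers on the array, 3 were above the floor on each, with a summed linear signal of 402 in CMT93-PM1 and 208 in CMT93. Cd68 (7.05 and 5.23) and Csf1r (7.54 and 6.42) were more than 2-fold higher in CMT93-PM1, and Ptprc, which marks nearly all leukocytes, was at the floor on both arrays (2.82 and 3.31). The summed signals of 7 fibroblast markers were 164 and 187, those of 6 lung epithelial markers 195 and 262, those of 4 neural markers 74 and 103, and those of 5 endothelial markers 719 and 481. Among the last, Cdh5 (9.30 and 4.21) and Tek (3.43 and 8.57) differed in opposite directions. The part of host cells in the transporter values was not tested, and in RNA of a whole culture fewer cells of a type and less RNA per cell cannot be told apart.

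These carriers divide by substrate and by what drives them. Slc6 carriers use the sodium gradient to concentrate osmolytes, transmitters and neutral amino acids, and Slc1 and several Slc38 carriers are coupled to sodium too, while the Slc7 light subunits are exchangers that reach the membrane bound to a heavy subunit of the Slc3 family. Proliferating tumour cells rely on them for glutamine, leucine and cystine. The transcription factor ATF4 induces many of them when amino acids are scarce, and NFAT5 induces the osmolyte carriers in hypertonic conditions.

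No symbol of the set was 2-fold or more higher in CMT93-PM1, while 8 of the 42 measured were 2-fold or more lower. Slc7a6os, which is not a carrier, was among the 8. Over all 13332 measured genes, 4.42% were that much higher and 2.55% that much lower. Among the 40 carriers alone the count lower was 7. Slc6a12 and Slc6a13 were measured only through their signal in CMT93, so a lower value was fixed by the way they passed. Of the 40 symbols above the floor on both arrays, 6 were 2-fold or more lower and 0 higher, beside 2.27% lower and 4.03% higher over the 12614 such genes. At 1.5-fold or more, 11 of the 42 were lower and 0 higher, beside 6.95% and 11.5% of all measured genes. At 4-fold or more, 2 were lower and 0 higher, beside 0.638% and 0.788%. These 2 were Slc6a12 and Slc6a13, whose direction was fixed by the way they passed. Among the 40 symbols above the floor on both arrays the lowest difference was -1.57, which is within 4-fold. In all, 32 of the 42 had a negative difference, 8 a positive one and 2 none, with a median of -0.29 and a range from -4.00 to 0.56. The median over all measured genes was 0.00, with 48.7% negative. The members were taken by name, but carriers of a family share ancestry and often regulation, and they are not replicates of each other.

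**Figure D1:**
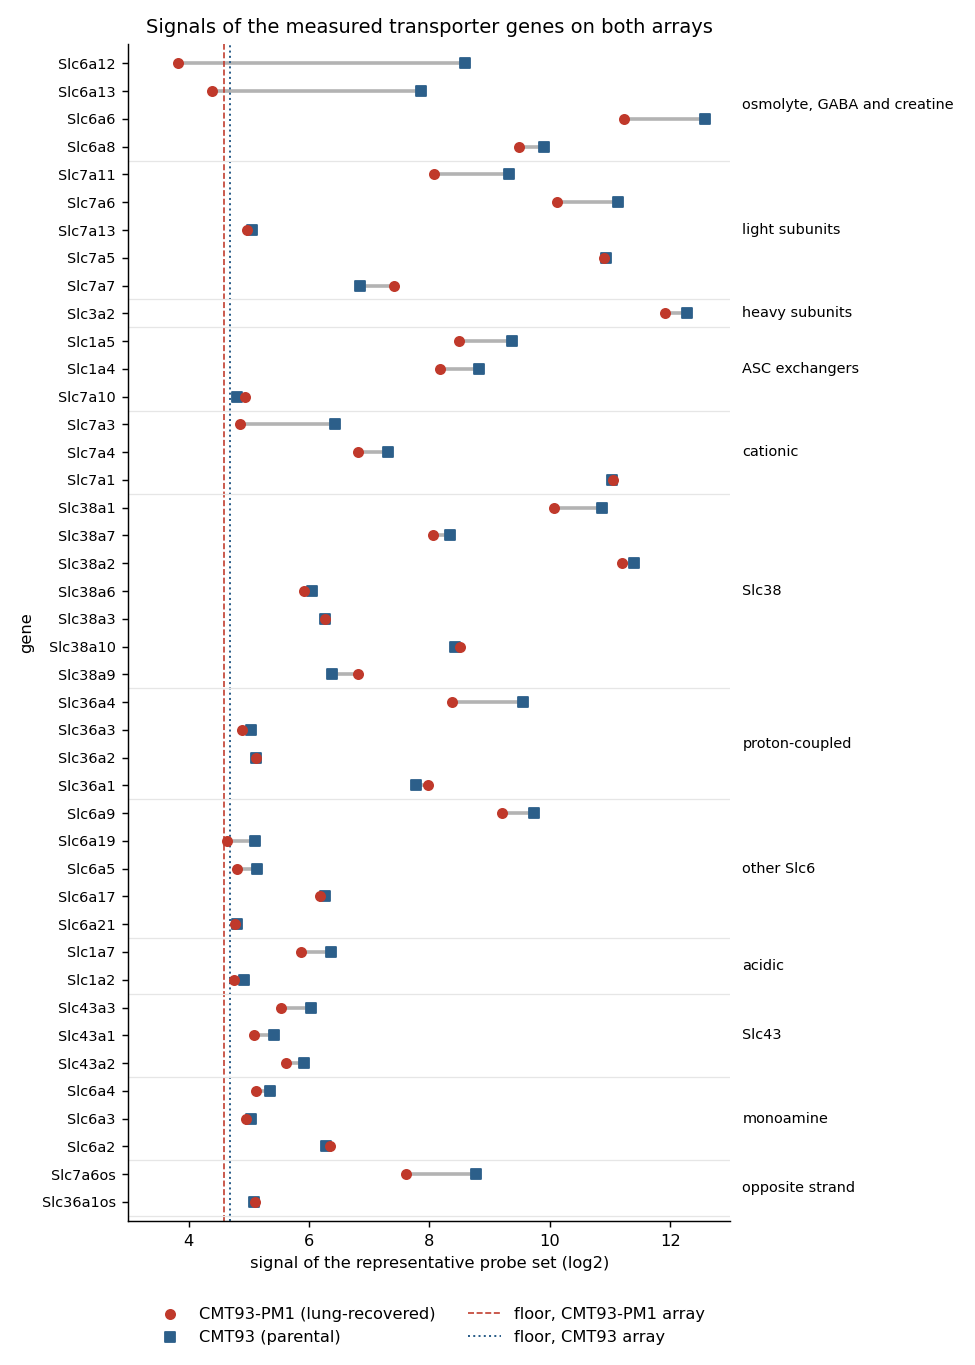
Log2 signal of the representative probe set (horizontal axis) of the 42 measured genes (rows, grouped by type of carrier) in CMT93-PM1 (red circles) and CMT93 (blue squares), with 1 array each and the floors as dashed and dotted lines. Slc6a12 and Slc6a13 span the longest gaps and end below the floor in CMT93-PM1, while Slc7a5 and Slc7a1 have nearly coincident points near 11.

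**Figure D2:**
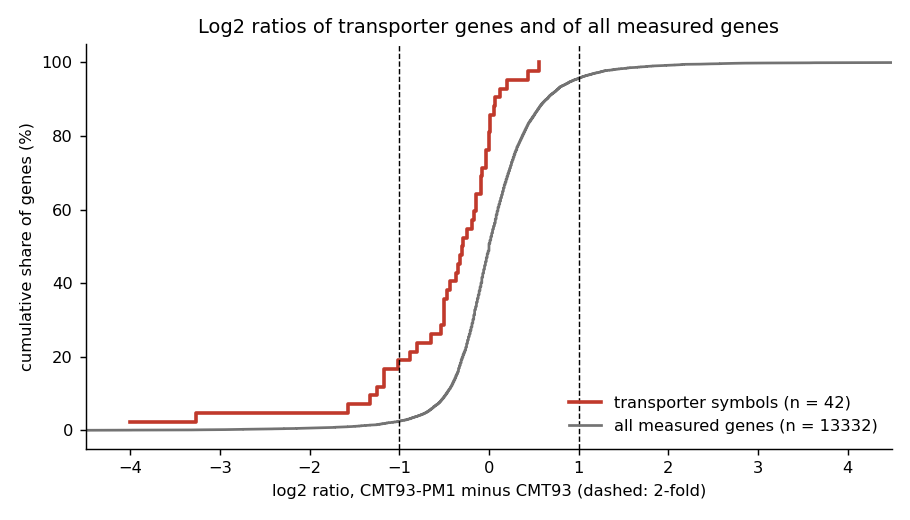
Cumulative share of genes (percent) against the log2 difference, CMT93-PM1 minus CMT93, for the 42 measured transporter symbols (red steps) and all 13332 measured genes (grey), with dashed lines at 2-fold. The red line lies left of the grey one from its start at -4.00 to its end at 0.56, with 8 genes left of the lower dashed line and 0 right of the upper one.

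Among the carriers of osmolytes and of gamma-aminobutyric acid (GABA), Slc6a12 and Slc6a13 had the widest differences of all members. Both passed only through their signal in CMT93. Among symbols above the floor on both arrays, the widest was that of the cationic carrier gene Slc7a3, at -1.57. Slc6a12 encodes the betaine and GABA transporter BGT1, known from the hypertonic kidney medulla, where it brings in the osmolyte betaine. Its only probe set read 3.82 in CMT93-PM1, below the floor, against 8.59 in CMT93. It was at least 16-fold lower, a bound of -4.00 log2 set by the floor that shrank to -2.44 with the floor at the 60th percentile. Slc6a13 encodes GAT-2, a GABA transporter that also carries taurine and is known from liver and kidney. It read 4.39 in CMT93-PM1, also below the floor, against 7.86 in CMT93, at least 9.65-fold lower, a bound of -3.27 log2 that shrank to -1.71 with that higher floor. Both genes were thus read only in CMT93, and both have close relatives in the Slc6 family, so cross-hybridization between them was not tested.

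Slc6a6 encodes TauT, the carrier that concentrates taurine. It read 11.24 in CMT93-PM1 against 12.57 in CMT93, 2.51-fold lower. Its second probe set read 10.02 against 11.33, a difference of -1.31. The dimmer probe sets gave smaller differences, at 6.72 against 7.51 and at 6.48 against 6.64, so the median over the 4 was -1.05. Slc6a8, the creatine transporter, read 9.48 in CMT93-PM1 against 9.91 in CMT93, and 8.50 against 9.05 by its other probe set. Both of these are within 1.5-fold. The remaining gene of this group, the GABA carrier gene Slc6a11, was at the floor on both arrays. Of the genes of this group above the floor on both arrays, Slc6a6 was 2-fold or more lower and Slc6a8 was not, and the direction of Slc6a12 and Slc6a13 was fixed by the way they passed.

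Slc6a13 and Slc6a12 are adjacent genes on mouse chromosome 6, which is their order in assembly GRCm38.p6. Their neighbours were looked at after these values had been seen. Of the 10 nearest protein-coding genes on the array, 5 on each side, 8 were measured, with differences from -0.50 to 1.24 and 0 at 2-fold or more lower. The gene next to Slc6a13, the interferon-induced protease gene Usp18, read 10.30 in CMT93-PM1 against 10.23 in CMT93. On the other side, Iqsec3 read 6.43 against 6.93. The low readings of CMT93-PM1 within this stretch therefore fell on the adjacent pair of carriers, while A2m and Mug1 further on were at the floor on both arrays.

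**Figure D3:**
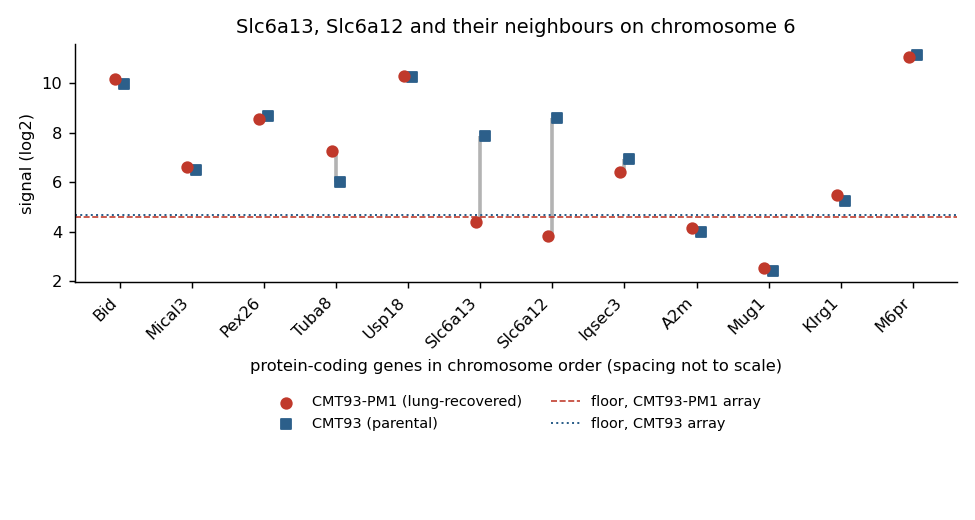
Log2 signal of the representative probe set in CMT93-PM1 (red circles) and CMT93 (blue squares) for Slc6a13, Slc6a12 and 5 protein-coding genes of the array on each side, in chromosome order with spacing not to scale; floors are dashed and dotted. The gaps of Slc6a13 and Slc6a12 stand out, and Usp18 and Iqsec3 on either side are above the floor on both arrays.

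The promoters of this pair and of Slc7a11 are shown because these genes are the ones in which motifs of the known regulators NFAT5 and ATF4 were found among the genes 2-fold or more lower. Sequences are from RefSeq (GRCm38.p6), run from 250 bases before to 50 after an annotated start, and were found for 46 of the 63 symbols. Of the 8 genes 2-fold or more lower, 6 had a sequence. Slc6a6 and Slc7a3 had none, so their promoters were not searched. The Slc6a12 window is chr6:121342324-121342623 on the plus strand, and the Slc6a13 windows are chr6:121300038-121300337 and chr6:121303389-121303688 on the plus strand, the second at a downstream start. The Slc7a11 window is chr3:50443564-50443863 on the minus strand. Capitals mark the tonicity element of NFAT5 in Slc6a12 and in the second Slc6a13 window, a core antioxidant response element in the first Slc6a13 window, and 2 core C/EBP-ATF response elements in Slc7a11.
Slc6a12 promoter: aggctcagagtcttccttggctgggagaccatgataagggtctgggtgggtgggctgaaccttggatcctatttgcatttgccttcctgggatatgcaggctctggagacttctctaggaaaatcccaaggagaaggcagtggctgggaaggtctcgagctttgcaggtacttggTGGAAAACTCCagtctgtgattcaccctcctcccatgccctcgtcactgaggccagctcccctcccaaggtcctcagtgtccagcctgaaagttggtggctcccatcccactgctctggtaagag
Slc6a13 promoter, first start: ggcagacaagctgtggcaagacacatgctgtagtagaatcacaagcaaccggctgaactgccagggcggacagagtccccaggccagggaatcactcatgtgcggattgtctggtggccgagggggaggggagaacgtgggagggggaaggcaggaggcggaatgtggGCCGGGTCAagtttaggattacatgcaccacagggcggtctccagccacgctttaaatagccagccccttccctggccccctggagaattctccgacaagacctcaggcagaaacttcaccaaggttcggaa
Slc6a13 promoter, downstream start: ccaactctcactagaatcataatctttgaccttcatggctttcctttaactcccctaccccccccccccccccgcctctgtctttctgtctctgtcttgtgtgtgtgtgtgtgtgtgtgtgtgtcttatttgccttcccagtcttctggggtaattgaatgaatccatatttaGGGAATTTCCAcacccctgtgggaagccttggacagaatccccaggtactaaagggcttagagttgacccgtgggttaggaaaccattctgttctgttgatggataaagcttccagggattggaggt
Slc7a11 promoter: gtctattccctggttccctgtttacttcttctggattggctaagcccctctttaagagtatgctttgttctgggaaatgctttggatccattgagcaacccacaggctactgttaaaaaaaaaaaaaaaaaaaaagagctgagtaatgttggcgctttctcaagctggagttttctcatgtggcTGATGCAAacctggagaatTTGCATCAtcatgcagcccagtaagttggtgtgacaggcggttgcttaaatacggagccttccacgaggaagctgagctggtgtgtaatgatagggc

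In Slc6a12 the tonicity element began 75 bases before the annotated start, and in the downstream window of Slc6a13 it began 77 bases before it, read on the opposite strand. Slc6a12 has 5 annotated starts and Slc6a13 has 3, and the element was in 1 window of each. The full consensus of the element was in 4.96% of all 32851 promoter windows, in 5.74% of 27025 genes by any of their windows, and in 7 of the 46 matched symbols, at 15.2%. In Slc7a11 the core element TGATGNAA was found on both strands, beginning 66 and 47 bases before the start, as an inverted pair. It was in 3.97% of windows, 4.51% of genes and 4 of the 46 symbols (Slc7a11, Slc7a7, Slc1a4 and Slc6a21). TGACNNNGC, the antioxidant response element core read by NRF2, was in 12.4% of windows, 14% of genes and 10 of the 46 symbols, and in 2 of the 6 matched genes that were 2-fold or more lower (Slc6a13 and Slc7a6). CACGTG, an E-box read by MYC, was in 7.15% of windows, 8.09% of genes, 9 of the 46 symbols and 0 of those 6. Both strands were searched for every motif, and the marked stretches do not overlap in the windows shown. These are matches of letters in a short window and not measured sites.

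Among the exchanger subunits, the cystine carrier and a cationic exchanger were lower by their representative probe sets, and the leucine carrier read nearly the same on both arrays. Slc7a11 encodes xCT, which imports cystine for glutathione synthesis in exchange for glutamate. It read 8.07 in CMT93-PM1 against 9.32 in CMT93, 2.38-fold lower. Its other probe set read 7.87 against 7.95, so the probe sets of this gene disagreed and their median of -0.66 was under 2-fold. Slc7a6 encodes y+LAT2, which exchanges arginine for glutamine and sodium. It read 10.12 in CMT93-PM1 against 11.13 in CMT93, and 10.03 against 11.13 by its other probe set, 2.01-fold and 2.14-fold lower. These readings lay near the 2-fold line and were alike in both probe sets.

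Slc7a5, the light subunit of the leucine and tryptophan carrier LAT1, read 10.90 in CMT93-PM1 against 10.93 in CMT93. Its partner Slc3a2, the heavy subunit CD98 that is shared by most of these exchangers, read 11.91 against 12.28. Slc7a7, encoding y+LAT1, had the highest difference of all 42, at 7.41 in CMT93-PM1 against 6.85 in CMT93 or 0.56, while its other probe set read 6.41 against 6.44. Slc7a13 was near the floor on both arrays, with a difference of -0.09. Slc3a1 and Slc7a9, which form the apical cystine carrier of kidney and gut, were at the floor on both arrays, as were Slc7a8, Slc7a12 and Slc7a15. Slc7a10, grouped below with the exchangers of small neutral amino acids, was not counted here. Of the 5 other light subunits measured, 2 were 2-fold or more lower by the representative probe set and 0 higher. The shares over all measured genes were 2.55% and 4.42%. Neither call held throughout, since Slc7a11 was under 2-fold by the median over probe sets and Slc7a6 was at -0.91 with the arrays scaled to equal medians.

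The neighbour of Slc7a6, Slc7a6os, read 7.61 in CMT93-PM1 against 8.78 in CMT93 by 1 probe set, 2.25-fold lower. Its other probe set, close in signal, read 7.69 against 7.47, in the other direction. The 2-fold count for this gene thus rests on the choice of probe set. Around Slc7a6 and Slc7a6os, which are adjacent on chromosome 8, 9 of the 10 nearest protein-coding genes of the array were measured, with differences from -1.11 to 0.57. The lowest was Smpd3, a sphingomyelinase gene, at 5.32 in CMT93-PM1 against 6.43 in CMT93.

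The sodium-dependent exchangers of small neutral amino acids were lower by less than 2-fold. Slc1a5 encodes ASCT2, a main entry route of glutamine in tumour cells. It read 8.49 in CMT93-PM1 against 9.37 in CMT93, 1.84-fold lower, and 5.16 against 6.05 by its other probe set. Slc1a4, encoding ASCT1 for alanine, serine and cysteine, read 8.17 against 8.82, 1.57-fold lower, with differences of -0.52 and -0.27 by its other probe sets. Every measured probe set of both genes was lower in CMT93-PM1. Slc7a10, which encodes a carrier of the same kind of substrates in the Slc7 family, was close to the floor at 4.93 and 4.81.

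Of the cationic amino acid carriers, Slc7a1 (CAT1), the usual arginine entry route of dividing cells, read 11.05 in CMT93-PM1 against 11.04 in CMT93, and 9.71 against 9.76 by its other probe set. Slc7a3 (CAT3) read 4.86 in CMT93-PM1, just above the floor, against 6.43 in CMT93, 2.97-fold lower. With the floor at the 60th percentile that difference shrank to -0.28. Slc7a4 read 6.82 against 7.32, and Slc7a2 and Slc7a14 were at the floor on both arrays. Slc7a1 was thus well above the floor on both arrays, and Slc7a3 was near it in CMT93-PM1.

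In the Slc38 family, Slc38a1 encodes SNAT1, a sodium-coupled importer of glutamine and alanine. It read 10.07 in CMT93-PM1 against 10.87 in CMT93, 1.74-fold lower, but 10.15 against 10.51 by its other probe set. Slc38a2 encodes SNAT2, which cells induce under amino acid shortage and hypertonic stress. It read 11.20 against 11.39 by its representative probe set, with larger differences of -0.66 and -0.75 by its dimmer ones, at 8.62 against 9.28 and at 6.19 against 6.94. Its 3 probe sets were all lower in CMT93-PM1.

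Slc38a9, the lysosomal arginine sensor of the mTORC1 pathway, was among the few on the other side, at 6.82 in CMT93-PM1 against 6.39 in CMT93. Of its 7 measured probe sets, 6 had differences from 0.01 to 0.73 and 1 of -0.30. Slc38a7, a lysosomal glutamine exporter, read 8.06 against 8.35. Slc38a10 read 8.50 against 8.43, and its 7 probe sets ran from -0.26 to 0.21. Slc38a3 (6.26 on both arrays) and Slc38a6 (5.91 and 6.05) were within 1.5-fold, and Slc38a4 and Slc38a5 were at the floor on both.

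In the Slc36 family, Slc36a4 encodes PAT4, an amino acid carrier of the cell surface and endosomal membranes with high affinity for proline and tryptophan. Its only probe set read 8.38 in CMT93-PM1 against 9.55 in CMT93, 2.25-fold lower. Slc36a1 (PAT1), known from lysosomes and the apical membrane of the gut, read 7.97 against 7.77. Slc36a2 and Slc36a3 were near the floor, with differences of 0.00 and -0.15, and so was Slc36a1os, at 0.01. Within this family 1 of 4 carriers was 2-fold or more lower, beside 2.55% of all measured genes.

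The other measured genes were all within 1.5-fold by their representative probe sets. Slc6a9, the glycine carrier GlyT1, read 9.20 in CMT93-PM1 against 9.74 in CMT93, and 8.29 against 8.74 by its other probe set. The remaining Slc6 genes of this group had differences from -0.47 for the gut carrier gene Slc6a19, which read 4.63 against 5.10 and so lay at the edge of the floor, to -0.03 for Slc6a21. The Slc43 genes had differences from -0.50 to -0.30. They were Slc43a3 (5.53 in CMT93-PM1 and 6.03 in CMT93), which carries purine nucleobases, and the LAT-type carrier genes Slc43a2 (5.61 and 5.91) and Slc43a1 (5.08 and 5.42). Of the glutamate carriers, Slc1a7 read 5.87 against 6.37 and Slc1a2 read 4.75 against 4.92. The monoamine carrier genes Slc6a2, Slc6a3 and Slc6a4, expressed mainly in neurons and known as drug targets, were dim and had differences from -0.24 to 0.06.

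In all, 21 symbols were at the floor on both arrays by their representative probe set. Beside those already named, they were Slc1a1, Slc1a3, Slc1a6, Slc6a7, Slc6a14, Slc6a15, Slc6a16, Slc6a18, Slc6a20a, Slc6a20b and Slc6a19os. Slc1a1, Slc6a14 and Slc6a20a, carriers of glutamate, neutral and imino acids known from the apical membranes of epithelia, were thus not read in either line. For Slc1a3, a dim probe set that was not the representative read 4.64 in CMT93-PM1 against 4.16 in CMT93.

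**Figure D4:**
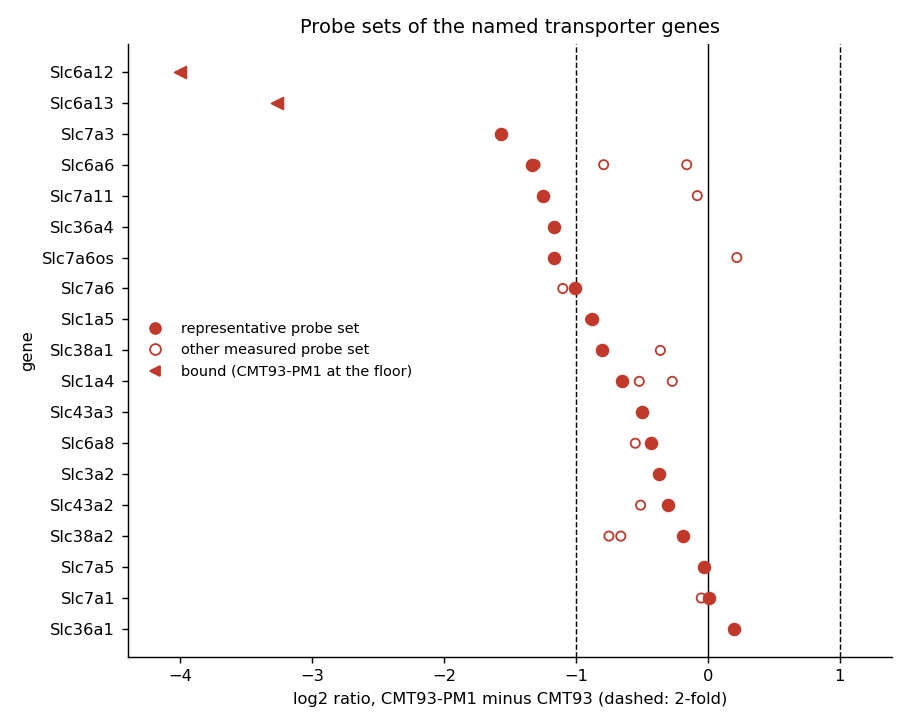
Log2 difference, CMT93-PM1 minus CMT93, of every measured probe set of 19 named genes (rows), with filled circles for the representative probe set, open circles for the others and triangles for bounds; dashed lines mark 2-fold. Open circles near 0 for Slc7a11 and above 0 for Slc7a6os lie far from their filled circles, while those of Slc7a6, Slc1a5 and Slc7a1 nearly coincide.

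The median difference was larger in size among symbols of the set with higher signal. Of 16 symbols with a mean signal of 8 log2 or more, 14 had a negative difference and 8 were 1.5-fold or more lower (50%). Their median was -0.59. Slc7a6os, which is not a carrier and whose probe sets disagreed, was among the 16 and the 8. Over all 6364 genes of such signal, 43% were negative and 6.40% were 1.5-fold or more lower, with a median of 0.06. Among the 26 measured symbols below that signal, 3 were 1.5-fold or more lower and the median was -0.15, beside 7.46% and -0.05 over all 6968 genes. The signal limit was chosen after the values had been seen, and the counts describe these 2 arrays.

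Genes of related pathways were counted in the same way, from 7 lists. Their counts at 2-fold stand beside 4.42% higher and 2.55% lower over all measured genes. Of 30 measured genes of the amino acid response and ATF4 targets, 1 was 2-fold or more higher and 4 (13.3%) were lower. Their median was -0.13. Atf4 itself, named for its role, read 12.33 in CMT93-PM1 against 12.65 in CMT93. The asparagine synthetase gene Asns (12.99 and 12.71) and the serine synthesis gene Phgdh (13.45 and 13.24) were within 1.5-fold, as was the stress-response gene Nupr1 (13.40 and 13.26). Lower ones were Cth, which makes cysteine (2.20-fold), the mitochondrial carboxykinase gene Pck2 (2.28-fold), the mTORC1 inhibitor gene Ddit4 (2.31-fold) and Stc2 (2.08-fold, with its dimmer probe sets up to -0.19). The stress transcription factor gene Ddit3 was 2.38-fold higher, but its other probe set gave -0.44.

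Of 33 genes for the sensing of amino acids by mTORC1, 0 were 2-fold or more apart in either direction by their representative probe sets, with a median of -0.07 and a range from -0.73 to 0.92. The GTPase gene Rheb read 12.69 in CMT93-PM1 against 12.59 in CMT93, the lysosomal anchor gene Lamtor1 11.41 against 11.12, and the translation repressor gene Eif4ebp1 11.17 against 11.79. The 3 probe sets of Eif4ebp1 ran from -1.07 to -0.62, so that not all were within 2-fold.

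Of 24 osmotic response genes other than the carriers above, 1 was 2-fold or more higher and 3 (12.5%) lower, with a median of -0.12. Over all measured genes, 4.42% were that much higher and 2.55% that much lower. Nfat5, named for its role, read 10.30 in CMT93-PM1 against 10.23 in CMT93. Slc5a3, which imports the osmolyte myo-inositol and is an NFAT5 target, read 9.42 against 10.30, and it was named after its value was seen. The sodium, potassium and chloride importer gene Slc12a2, used in volume recovery, was 2.36-fold higher, by 3 probe sets from 1.24 to 1.52. Lower were the heat shock gene Hspa1b (3.84-fold), the water and glycerol channel gene Aqp3 (2.35-fold, with its smallest probe set difference at -0.29) and S100a4 (2.07-fold). The kinase gene Sgk1 (12.11 and 12.57), the water channel gene Aqp1 (12.56 and 11.70) and the choline kinase gene Chka (12.01 and 11.21) were within 2-fold, and the probe sets of Chka ran from -1.05 to 0.80.

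Of 16 genes on the path from cystine to glutathione and related iron and redox genes, 2 were 2-fold or more higher and 2 (12.5%) lower. Their median was -0.14. Over all measured genes, 4.42% were that much higher and 2.55% that much lower. The transferrin receptor gene Tfrc, through which cells take up iron, read 9.36 in CMT93-PM1 against 12.68 in CMT93, 9.99-fold lower, and its 3 probe sets gave -3.32 to -2.87. Chac2, which degrades glutathione, was 3.18-fold lower. Nfe2l2, which encodes NRF2, was 2.13-fold and Ggct 2.07-fold higher, but their other probe sets went down to 0.41 and 0.08. The lipid peroxidase gene Gpx4 (12.41 and 12.53), Txnrd1 (11.96 and 11.68) and Chac1 (11.96 and 11.42) were within 1.5-fold.

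Of 14 genes of glutamine, proline and aspartate metabolism, 1 was higher and 0 lower at 2-fold, beside 4.42% and 2.55% of all measured genes. The higher one was the glutamine synthetase gene Glul, at 7.56 in CMT93-PM1 against 6.29 in CMT93, 2.41-fold higher and at 1.23 by its other probe set. The aspartate aminotransferase genes Got2 (13.34 and 13.43) and Got1 (11.51 and 12.19) were within 2-fold. In creatine and taurine metabolism, 1 of 8 was higher and 1 lower. The creatine synthesis gene Gamt read 6.69 against 5.31, 2.60-fold higher, and the mitochondrial creatine kinase gene Ckmt1 read 6.89 against 9.29, 5.28-fold lower. The cysteamine dioxygenase gene Ado (9.03 and 9.07) and Aldh7a1 (6.72 and 6.32) were within 1.5-fold.

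Of 15 measured carriers of amino acids and peptides outside the 7 families, and their partners, 0 were 2-fold or more higher and 1 (6.67%) lower. Over all measured genes these shares were 4.42% and 2.55%. The median of the 15 was -0.41, with 11 negative and 4 positive. The lower one was Slc17a6, a vesicular glutamate carrier known from neurons, which read 4.18 in CMT93-PM1, below the floor, against 6.87 in CMT93, at least 4.86-fold lower. The mitochondrial aspartate and glutamate carrier genes Slc25a12 (10.52 and 10.93) and Slc25a13 (9.53 and 9.56) and the lysosomal cystine exporter gene Ctns (10.37 and 9.82) were within 1.5-fold. The difference of Ctns rests on 1 measured probe set. Slc7a11, at the cell surface, was lower in CMT93-PM1 by its representative probe set but nearly level by its other (7.87 against 7.95).

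**Figure D5:**
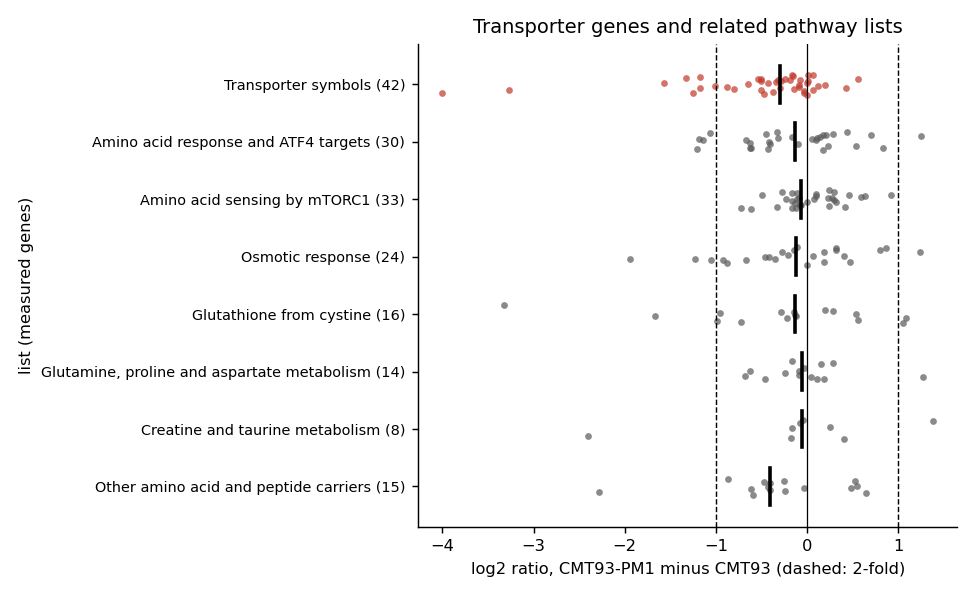
Log2 difference, CMT93-PM1 minus CMT93, of the measured genes (points, spread vertically at random) of the transporter symbols (red, top row) and of the 7 related lists (grey, counts in parentheses), with black bars for medians and dashed lines at 2-fold. The top row has 0 points right of the upper dashed line, and its median of -0.29 lies between those of the other carriers (-0.41) and the remaining lists (-0.14 to -0.06).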

How the data were processed

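The deposited values were log2 signals of 45037 probe sets on 1 array of CMT93-PM1 and 1 of CMT93, with base 2 taken from the values. MAS5 appears in the submitters' processing notes without a role. How the authors summarised probes or scaled the arrays is not stated in the sources read here. Values were used as deposited. Probe sets with 1 symbol in the platform annotation (34945 of 35877 listed) were named through Entrez identifiers by the GRCm38.p6 gene table, and 932 with several symbols were left out, 1 of them shared with Slc1a2. Each array was floored at its 40th percentile, and differences with 1 array at the floor are bounds. Python 3.11.15, pandas 2.3.3 and statsmodels 0.14.6 were used. On simulated arrays, 143 of 143 changed probe sets above the floor were called at 2-fold. All planted changes were 4-fold or larger and the added noise was small, so this outcome was fixed in advance. Changes close to 2-fold were not simulated. The simulation was a check of the calling step alone. It cannot show how reliable the calls between the lines are, because the real arrays gave no replicate error. No figure for wrong calls among unchanged probe sets was reported.

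Members, lists and groups were chosen with earlier results of these data known. Named were members 1.5-fold or more apart, the 2 of highest signal per family, and Slc6a6, Slc6a8 and Slc6a12, and from each list up to 6 genes past 2-fold and the 3 of highest signal. Of 209 list and marker symbols, 195 matched, 1 by an older name. Alternatives were 4 other scalings, 3 other floors, 2 other ways to represent a gene and 2 other fold limits, and, added after seeing the data, carriers only.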

Additional observations from a re-analysis of the deposited data

How the results depend on the processing

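The count of members 2-fold or more higher was 0 under all 12 alternatives. The count lower, 8, ran from 6 (median over probe sets, which lost Slc7a11 and Slc7a6os) to 8 under those that kept the 2-fold limit. It was 11 at 1.5-fold and 2 at 4-fold (Slc6a12 and Slc6a13). The members' median of -0.29 ran from -0.37 with the floor at the 60th percentile to -0.15 with no floor, beside 0.06 and -0.01 over all genes. Scaling to equal medians raised the median of all genes to 0.10 and that of the members to -0.20, with Slc7a6 at -0.91, and left 64.3% of members and 37.9% of all genes negative. Of 186 values of 19 named genes under alternatives, 0 of those past 2-fold changed sign, and 15 moved by more than the median spread between probe sets of a gene. The bounds of Slc6a12 and Slc6a13 shrank to -2.44 and -1.71 with the higher floor, and Slc7a3 to -0.28. No paired analysis was possible because each group had 1 array, and none could be left out. Signal near the floor limits what dim genes can show.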
